A study of Mus musculus with 41 samples.

Results

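The copy number of chromosomes 17 and 19 was examined in 14 mouse mesotheliomas by low-coverage DNA sequencing. These chromosomes were chosen because the study named them as exceptions to a lack of major recurrent copy number changes in its tumors. A higher level there than on the other autosomes is therefore not an independent finding. All 20-kb bins of both chromosomes were taken, whatever their values, which gave 4418 bins on chromosome 17 and 2760 bins on chromosome 19, together 7178 of the 114391 autosomal bins and of the 122257 bins in all. Each value is the log2 ratio of the corrected read count of a bin in the tumor to that in normal tail DNA, centred here on the median autosomal bin of the same tumor. A value of 0 is thus the level of most of the tumor's genome, 0.58 is the value for 3 copies in place of 2 in every cell, and -1 is the value for 1 copy in place of 2.

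The labels list 10 tumors of BNC mice (Bap1-/-;Nf2-/-;Cdkn2ab-/-) and 4 tumors of NC mice (Nf2-/-;Cdkn2ab-/-), the same without the loss of Bap1. Per the study's methods, all animals had a mixed background of several laboratory strains, FVB and Bl6 among them. Mice aged 6–8 wk received cyclosporine A in the drinking water before and after an adenovirus with Cre under the CMV promoter was injected into the pleural space. The promoter is active in many cell types, so the site of injection and not a cell type set where recombination could occur. In the Cdkn2ab allele the Ink4a and Ink4b parts were absent from the germline and Arf was conditional. The 14 columns of DNA values carry a tumor code, an animal number, and a site (RC in 7, Eso in 6, and Diaphragm in 1) but no genotype, so the tumors are named by their codes and no comparison between BNC and NC could be made. B20 and B21 share 1 animal number, and each tumor was read as 1 library with no replicate.

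A cell that gains or loses a whole chromosome changes the dose of every gene on it at once, and a tumor piece that also holds normal or diploid cells shows such a change at less than its full size. Chromosome 17 of the mouse carries the H2 complex, whose class I and class II genes present antigens to T cells, together with the gene for the cell cycle inhibitor p21 (Cdkn1a) and the mismatch repair gene Msh6. Chromosome 19 carries the tumor suppressor gene Men1, the kinase gene Jak2, and Cd274, which encodes the checkpoint ligand PD-L1. In bulk tissue a smaller gain in all cells and a full gain in some of the cells cannot be told apart.

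The sequences below show places where tumors departed from each other over a few bins, described further on. The first 3 are the 250 bases before the start of a gene as RefSeq places it, and the last is the 300 bases around the middle of a pair of bins that held no usable value in some tumors. They are from RefSeq (GRCm38.p6, the mm10 assembly) and run 5′ to 3′, and capitals mark the bases that the reference does not mask as repeats. None of the 4 overlaps a gene of the GENCODE M21 annotation, from which the gene positions elsewhere were taken.
H2-M10.5 (chr17:36772660-36772909, plus strand): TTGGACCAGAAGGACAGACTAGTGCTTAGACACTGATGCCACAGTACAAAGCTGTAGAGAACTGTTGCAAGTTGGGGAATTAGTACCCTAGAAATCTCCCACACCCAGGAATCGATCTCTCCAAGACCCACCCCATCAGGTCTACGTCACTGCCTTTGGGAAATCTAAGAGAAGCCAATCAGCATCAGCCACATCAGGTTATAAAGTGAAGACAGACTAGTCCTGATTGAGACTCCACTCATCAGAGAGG
Esp38 (chr17:39950270-39950519, plus strand): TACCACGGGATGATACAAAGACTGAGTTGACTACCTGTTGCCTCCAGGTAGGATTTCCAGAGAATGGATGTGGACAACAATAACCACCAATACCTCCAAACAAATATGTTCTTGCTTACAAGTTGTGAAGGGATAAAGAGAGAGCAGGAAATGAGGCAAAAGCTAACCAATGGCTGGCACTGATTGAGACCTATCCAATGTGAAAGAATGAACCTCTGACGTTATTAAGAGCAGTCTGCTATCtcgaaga
Kif11 (chr19:37376132-37376381, plus strand): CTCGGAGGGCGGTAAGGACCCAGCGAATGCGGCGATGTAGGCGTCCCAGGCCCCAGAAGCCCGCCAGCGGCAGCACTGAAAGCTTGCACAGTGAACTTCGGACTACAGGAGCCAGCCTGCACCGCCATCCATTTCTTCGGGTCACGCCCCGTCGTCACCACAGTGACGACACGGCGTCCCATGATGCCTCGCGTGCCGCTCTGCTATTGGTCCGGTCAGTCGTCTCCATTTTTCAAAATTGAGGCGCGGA
Middle of the filled bins (chr19:25939851-25940150, plus strand): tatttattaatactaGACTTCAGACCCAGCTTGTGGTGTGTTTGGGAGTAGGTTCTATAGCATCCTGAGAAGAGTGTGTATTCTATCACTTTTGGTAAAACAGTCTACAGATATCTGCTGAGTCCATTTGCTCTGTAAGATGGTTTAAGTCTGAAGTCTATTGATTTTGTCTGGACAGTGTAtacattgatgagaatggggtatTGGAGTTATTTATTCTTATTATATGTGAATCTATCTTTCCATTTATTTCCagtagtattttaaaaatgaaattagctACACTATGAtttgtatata
The H2-M10.5 stretch had 47.6% GC and the Kif11 stretch 62.0% GC, both with no masked base. The Esp38 stretch had 42.8% GC, and 243 of its 250 bases were not masked. In the stretch from the filled bins, 226 of 300 bases were not masked and the GC content was 32.7%.

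The number of reads behind each bin is not held in the values, so the depth is unknown. The median difference between neighbouring bins, a measure of noise, was between 0.105 (B31) and 0.148 (B5). On the same scale the X chromosome had a median between -1.05 and -0.98 in 6 tumors and between -0.016 and 0.030 in the other 8. The bin over Cdkn2b, on chromosome 4, was below 0 in 14 of 14 tumors (lowest -1.66, median -0.99, highest -0.065, in B5). The value of B5 was smaller in size than the noise of that tumor. The 2 bins over Cdkn2a were also below 0 in 14 of 14 tumors, by less (lowest -0.95, median -0.35, highest -0.088, in B23). The 5 bins over Nf2 (median of the tumors -0.049) and the bin over Bap1 (-0.046) were near 0; a deletion shorter than a bin cannot be read here.

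Chromosome 19 was at a higher level in several tumors and stood farthest out in B28. Its median was 0.30 in B28, 0.17 in B31, 0.12 in B13, 0.081 in B14, 0.052 in B26, 0.041 in B19, and 0.023 in B12. It was 0.0076 in B25, -0.0030 in B16, -0.0058 in B5, -0.011 in B2, -0.013 in B23, -0.016 in B21, and -0.026 in B20. B28 was thus at the top, B31 and B13 followed, and the 7 lowest tumors lay between -0.026 and 0.0076. In terms of reads, chromosome 19 held 23.4% more than the median autosomal level in B28, 12.7% more in B31, 8.48% more in B13, and 5.77% more in B14. One copy added to 2 in every cell would give 50% more, a size that no tumor reached.

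**Figure D1:**
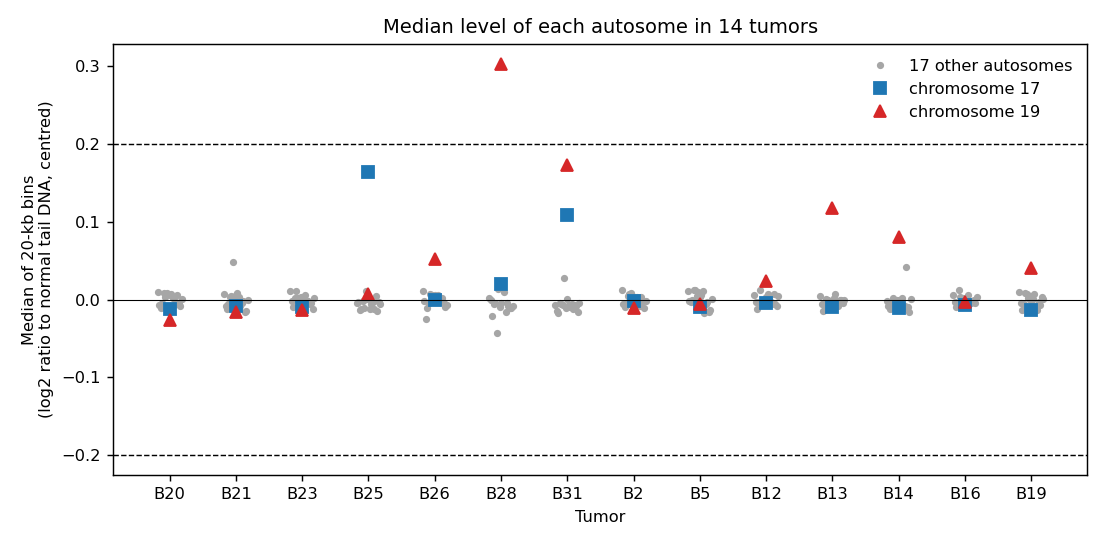
Median of the 20-kb bins of each autosome in each of the 14 tumors, as a centred log2 ratio to normal tail DNA; squares are chromosome 17, triangles chromosome 19, gray points the 17 other autosomes, and dashed lines 0.2 and -0.2. Chromosome 19 is above 0.2 in B28, chromosome 17 is highest in B25 and B31, and the other autosomes stay between -0.043 and 0.048.

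The other 17 autosomes gave a range for these values. Their 238 medians over the 14 tumors lay between -0.043 and 0.048. The ends of this range were chromosome 14 in B28, with 8 of 115 windows above 0, and chromosome 15 in B21, with 93 of 101. Chromosome 6 in B14 had a median of 0.042, with 134 of 147 windows above 0. The chromosome 19 medians of B19 and B12 lay within this range. Chromosome 19 was above every other autosome of the same tumor in 7 tumors (B28, B31, B13, B14, B26, B19, and B12). It was below every other autosome in 4 tumors (B20, B21, B23, and B2), with medians between -0.026 and -0.011. Apart from B20 these margins were small: -0.0161 against -0.0159 for the lowest other autosome in B21, -0.0132 against -0.0125 in B23, and -0.0114 against -0.0103 in B2. In B12 and B19 the lead was small: the highest of the other autosomes reached 0.012 and 0.0092. When the median over the tumors was subtracted from every bin, chromosome 19 was above the other autosomes in 4 tumors in place of 7. Its median was then 0.26 in B28, 0.13 in B31, 0.065 in B13, 0.026 in B14, and 0.0083 in B26, and it was below 0 in B19 (-0.0014) and B12 (-0.015). The medians of the other autosomes were taken over bins of all GC contents. Bins of those autosomes with a GC content between the lower and upper quartiles of chromosome 19 (39.7% to 45.3%) had medians between -0.011 and 0.0080 in the tumors.

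Chromosome 17 was at a higher level in B25 and B31. Its median was 0.16 in B25 and 0.11 in B31, which is 12.1% and 7.84% more reads than the median autosomal level. The next tumor, B28, had 0.020. In the other 11 tumors the median was below 0, from -0.014 in B19 to -0.00085 in B26. Chromosome 17 was above all 17 other autosomes of the same tumor in B25 and B31. It was below all of them in B20, by little (-0.0115 against -0.0108 for the lowest other autosome). No tumor reached 0.2 in either direction.

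Both chromosomes were therefore raised in B31, chromosome 19 alone stood out in B28 (chromosome 17 at 0.020), and chromosome 17 alone stood out in B25 (chromosome 19 at 0.0076). The tumors did not spread evenly: 50.1% of the range of the chromosome 17 medians and 39.5% of that of chromosome 19 lay in 1 gap between neighbouring values. For that reason no correlation between the chromosomes across tumors is given. Tumor sites differed among the 7 tumors with chromosome 19 above the other autosomes: B31, B13, and B26 were marked Eso, B14, B19, and B12 RC, and B28 Diaphragm. B21 and B5, also marked Eso, had chromosome 19 at -0.016 and -0.0058. B25 and B31, with the raised chromosome 17, were both marked Eso. The part of the site in these levels was not tested.

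At the threshold of 0.2, chromosome 19 of B28 was the single case among the 266 autosome medians of all tumors (0.376%). No autosome median was at -0.2 or lower (0%). In windows of 1 Mb, each the median of at least 10 bins, 69 of 826 windows of chromosome 19 (59 in each of 14 tumors) and 17 of 1288 windows of chromosome 17 (92 in each) were at 0.2 or higher. Over all autosomes, chromosomes 17 and 19 included, 0.309% of 33348 windows were at 0.2 or higher and 0.303% were at -0.2 or lower. Outside chromosomes 17 and 19, 17 of 31234 windows (0.0544%) were at 0.2 or higher. No window of either chromosome was at -0.2 or lower, whereas 101 of the 31234 windows of the other autosomes were. These 101 were between 4 (B31) and 15 (B5) per tumor. They included windows of chromosome 4, down to -3.1 in B5, and of chromosome 12, down to -1.49 in B19. The bin over Cdkn2b, also on chromosome 4, was at -0.065 in B5.

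All 59 windows of chromosome 19 in B28 were at 0.2 or higher, from 0.25 to 0.37 with a median of 0.30. They made up the only run of at least 5 neighbouring windows on either chromosome, from the first window with values at 3000001 to the last window, which ends past the chromosome's last base. B31 had the other 10 windows of chromosome 19, with values from 0.20 to 0.26. They lay in several places, between 13000001 and 51000000, and 5 of them adjoined another (13000001 to 15000000, at 0.22 and 0.26, and 48000001 to 51000000, at 0.22 to 0.24). With the median over the tumors subtracted from every bin, B31 had 1 window of chromosome 19 past 0.2 in place of 10, and B28 had 57 in place of 59. In the 12 tumors other than B28 and B31 the highest window was 0.17, in B13. Every window of B28 was above the same window of all other tumors (59 of 59), and B31 was above those 12 tumors in 58 of 59.

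**Figure D2:**
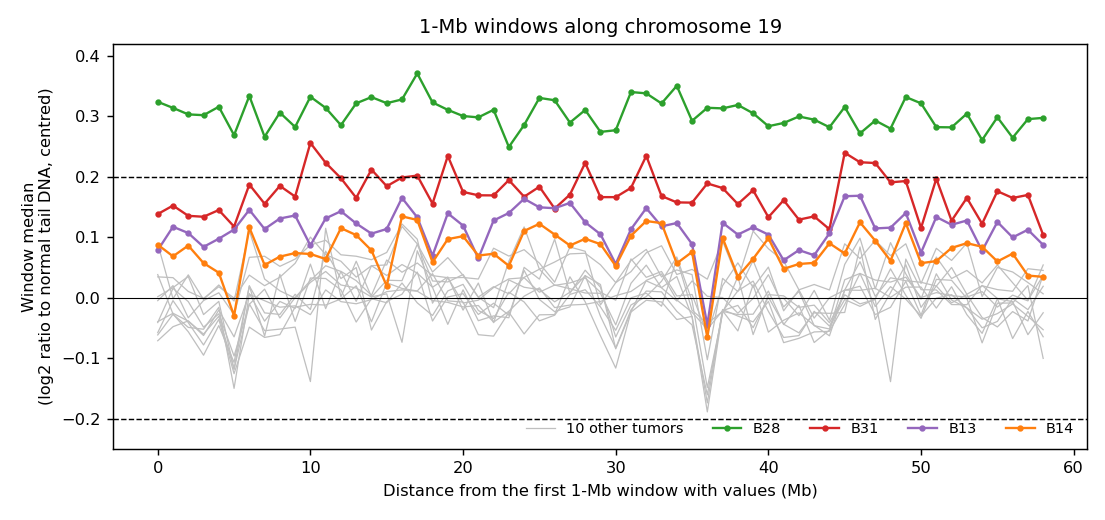
Medians of 1-Mb windows along chromosome 19 (x axis, distance in Mb from the first window; y axis, centred log2 ratio), 1 line per tumor, with B28, B31, B13, and B14 in color, the 10 other tumors in gray, and dashed lines at 0.2 and -0.2. B28 stays between 0.25 and 0.37 along the whole chromosome, above every other tumor.

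Of the 17 windows of chromosome 17 at 0.2 or higher, 15 were in B25, with values from 0.20 to 0.23, and 2 in B31. The 2 windows of B31 began at 40000001 (0.22) and 58000001 (0.20), and the second was also past the threshold in B25 (0.22). B25 was above the 12 tumors other than B31 in 92 of 92 windows, and B31 was above those 12 in 84 of 92. B25 was above B31 in 87 of 92 windows, by a median of 0.054 with an SD of 0.041 over windows. The highest window in the other 12 tumors was 0.12, in B5. Because the median of B25 lies below 0.2, which of its windows passed rested on small differences: the 3 nearest inside the threshold were at 0.20 and the 3 nearest outside at 0.197. With the median over the tumors subtracted, B25 had 3 windows past 0.2 in place of 15, and B31 had none.

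**Figure D3:**
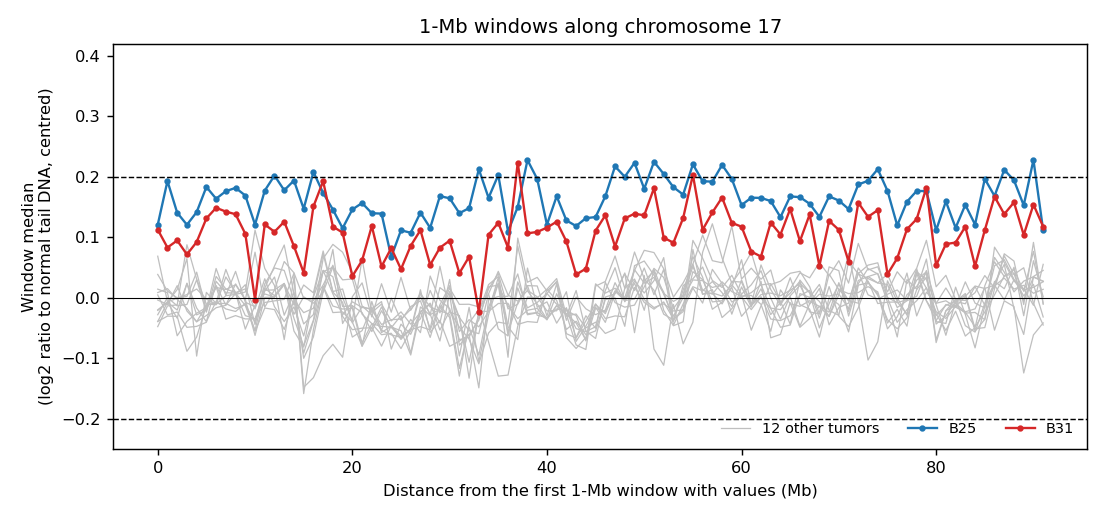
Medians of 1-Mb windows along chromosome 17 (x axis, distance in Mb from the first window; y axis, centred log2 ratio), 1 line per tumor, with B25 and B31 in color, the 12 other tumors in gray, and dashed lines at 0.2 and -0.2. B25 crosses 0.2 in 15 of 92 windows and lies above the gray lines in all of them.

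The raised level of B28 varied little along chromosome 19, and the lower levels of other tumors varied more for their size. With each chromosome split in the middle, chromosome 19 of B28 had a median of 0.307 in the first part and 0.301 in the second, and its 7 stretches of 10 Mb lay between 0.29 and 0.31. In B31 the stretches of chromosome 19 ran from 0.14 to 0.19, in B13 from 0.11 to 0.13, in B14 from 0.036 to 0.097, in B26 from 0.0028 to 0.076, and in B19 from 0.0019 to 0.057. For chromosome 17, the 10 stretches of B25 ran from 0.13 to 0.20 and those of B31 from 0.077 to 0.14. Over the 14 tumors the second part of chromosome 17 was higher than the first by 0.0075 to 0.042. On chromosome 19 the second part minus the first was between -0.024 and 0.0035.

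At the top of the order, neighbouring tumors differed by more than the SD of their window differences, and further down they did not. On chromosome 19, B28 led B31 by a median of 0.13 over windows (SD 0.036), and B31 led B13 by 0.055 (SD 0.039; higher in 58 of 59). From B13 on, neighbouring tumors in the order differed by less than the SD of their window differences. B13 was above B14 in 55 of 59 windows, by 0.028 with an SD of 0.030, B14 was above B26 in 44, and B26 above B19 in 37. On chromosome 17, B31 led B28 by 0.089 (SD 0.040; higher in 90 of 92), and B28 led B26 by 0.029, less than the SD of 0.044. The other neighbours further down also differed by less than the SD of their window differences. Windows of 1 tumor share a library, so these SDs describe spread along a chromosome and not the error between tumors.

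Genes with known roles in cancer and immunity were read from the bins that they overlap. Glo1 and Rn45s were listed for another reason, as genes that vary between strains or hold near-identical copies. Of 40 listed genes, 38 had a value, 17 of them on chromosome 19 and 21 on chromosome 17; Vegfb and Rn45s had none. In B28, 15 of the 17 genes of chromosome 19 were at 0.2 or higher, where 4.97% of the protein-coding genes of all autosomes were in that tumor. They included all 6 immune genes and all 6 genes of growth and signaling, and 3 of 5 tumor suppressor and cell cycle genes. In B31 it was 2 of 17 (1.83% of all genes), and in B13 3 of 17 (1.96%). These shares are over all autosomes, whereas the bins of chromosome 19 in B28 had a lower quartile of 0.23. Most bins of that chromosome were thus past 0.2 in B28, whatever gene they held. The upper quartiles of its bins were 0.25 in B31 and 0.197 in B13. The counts therefore describe the level of the chromosome and not a trait of the listed genes.

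Pdcd4, whose product restrains translation (chromosome 19, 53892231 to 53929860), reached 0.41 in B28, the highest of the 17 genes, and lay between -0.040 and 0.13 elsewhere. Men1, which encodes menin (6334979 to 6340891), was at 0.060 in B28, the lowest of the 17 there, and at 0.12 in B5 and B13. These genes cover 2 and 3 bins, so single values have more noise than the chromosome median. Sufu, an inhibitor of Hedgehog signaling (46396896 to 46488804, 6 bins), was at 0.29 in B28, 0.15 in B31, and between -0.12 and 0.11 elsewhere. Within B28 the 17 genes ranged from 0.24 below to 0.11 above the chromosome's own median.

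Jak2, the kinase of cytokine receptors (29251828 to 29313080), was at 0.36 in B28, 0.32 in B5, 0.22 in B13, 0.21 in B31, and 0.21 in B14. It was at 0.15 in B19 and between -0.063 and 0.056 in the other 8 tumors. In B5 the chromosome's median was -0.0058, and B5 had the largest noise. Cd274, next to Jak2 (29367455 to 29388095), had 0.39 in B28 and between -0.12 and 0.091 in all other tumors. Pdcd1lg2, which encodes PD-L2, had 0.24 in B28 and at most 0.14 (B31) in any other tumor. Among further immune genes, Ifit1, an interferon-induced gene, had 0.33 in B28, and the lymphocyte genes Cd5, Cd6, and Ms4a1 had 0.32, 0.27, and 0.30.

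**Figure D4:**
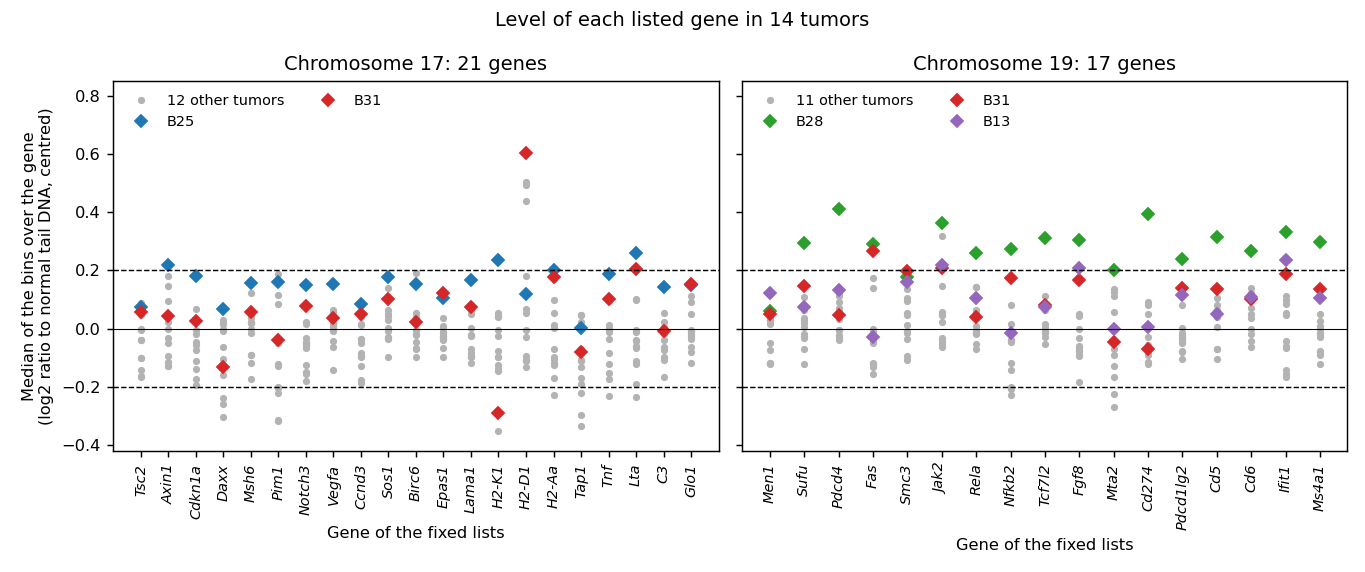
Level of 38 listed genes (x axis) as the median of the bins over each gene (y axis, centred log2 ratio), with B25 and B31 (chromosome 17) or B28, B31, and B13 (chromosome 19) in color, each other tumor as a gray point, and dashed lines at 0.2 and -0.2. B28 is at or above 0.2 for 15 of 17 genes of chromosome 19, and H2-D1 on chromosome 17 has 4 tumors above 0.4.

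In B25, 21 of the 21 genes of chromosome 17 were above 0, with a median of 0.15, and 13 had their highest value in that tumor. At 0.2 or higher were 4 genes (2.6% of all protein-coding genes in B25), namely Axin1, H2-K1, H2-Aa, and Lta. All bins of chromosome 17 in B25 had a median of 0.16 and an upper quartile of 0.24, and this count too describes the chromosome. Axin1, which holds the complex that degrades β-catenin (26138688 to 26195811), had 0.22 in B25, 0.18 in B12, and at most 0.15 in the other tumors. Cdkn1a had 0.18 in B25 and between -0.19 and 0.069 elsewhere. Msh6 had 0.16 in B25 and 0.058 in B31, and 0.12 in B20 was its next highest value to B25. In B31 16 of 21 genes were above 0 and 2 were at 0.2 or higher (1.83% of all genes).

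H2-D1, a class I gene (35262730 to 35267499), did not follow the rest of chromosome 17. It had 0.60 in B31, 0.50 in B28, 0.49 in B26, and 0.44 in B12. The next values were 0.18 in B21 and 0.12 in B25, and the other 8 tumors lay between -0.13 and 0.068. Its group of high tumors thus held B26, B28, and B12, in which the chromosome as a whole was between -0.0044 and 0.020. H2-K1, the other classical class I gene of the list, had its lowest values in B12 (-0.35) and B31 (-0.29) and its highest in B25 (0.24).

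Such places were then sought along both chromosomes, by a rule set after the values had been seen: at least 3 neighbouring bins with a value, all at 0.4 or beyond from the median of the chromosome in 1 tumor or more. Chromosome 17 had 14 such local regions (4 higher and 10 lower) and chromosome 19 had 11 (2 higher and 9 lower). They held 1.22% of the bins of chromosome 17 and 1.74% of those of chromosome 19, where the share over all autosomes was 1.01%. The values that follow are medians of the bins of a region minus the chromosome median of the tumor, given as a description with no test.

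On chromosome 17, 6 of the 14 regions split the tumors in the same way. They were 6 of the 8 regions between 35240001 and 40100000, in and beyond the H2 complex, and in each of them B12, B26, B28, and B31 were farther from 0 than all 10 other tumors. A region of 5 bins from 36080001 to 36180000, over the predicted genes Gm7030, Gm19684, and Gm8909, had -0.64 in B12, -0.84 in B26, -0.74 in B28, and -0.90 in B31. The other 10 tumors had between -0.23 and 0.029 there. A region of 4 bins over the olfactory receptor genes Olfr136 and Olfr137 (38300001 to 38380000) had -0.97, -0.86, -0.80, and -0.89 in the same tumors. The other 10 had between -0.13 and 0.17. The split was read from these same values, and how many of the 207 local regions of the other autosomes show it was not counted. The 6 regions lie in 1 stretch of the chromosome and are not 6 separate observations.

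The same 4 tumors were higher in 3 of the 6 regions. Around H2-D1 (35240001 to 35300000, with Ddx39b) they had 0.38 in B12, 0.49 in B26, 0.42 in B28, and 0.50 in B31. At Esp34, a gene of the exocrine gland–secreted peptides (38520001 to 38600000), they had 0.50, 0.59, 0.63, and 0.62. At Esp38 (39940001 to 40100000, 8 bins), whose upstream bases are shown above, they had 0.45, 0.45, 0.50, and 0.57, and the other 10 tumors had between -0.20 and 0.040. The last of the 6, at the class I gene H2-M10.5 (36720001 to 36780000), whose upstream bases are also shown, was lower, with -0.43, -0.55, -0.64, and -0.49. B31 was among the tumors with a raised chromosome 17, but B12, B26, and B28 were not. Of the tumors, B26 and B31 are marked Eso, B12 RC, and B28 Diaphragm, with 4 animal numbers.

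The other 8 regions of chromosome 17 did not show that split. Of these, 2 lay in the same stretch of the chromosome. At the class I genes H2-Q2 and H2-Q4 (35340001 to 35400000), B31 had -0.75, B26 -0.56, and B23 -0.45, whereas B12 (-0.29) and B28 (-0.27) were closer to 0 than B21 (-0.34). From 35980001 to 36060000, over H2-T22, H2-T23, and other genes, B26 alone was beyond 0.4, at -0.54, and B12 followed at -0.30. Thus B26 was beyond 0.4 in both, and B12 and B28 were in neither. At the pheromone receptor genes Vmn2r91 and Vmn2r92 (18080001 to 18160000), B16 had -0.98 and B19 -1.03. B14 and B5 had -0.47 and -0.46, and the other 10 tumors had between -0.36 and 0.01. At Cyp21a1, a gene of steroid hormone synthesis (34760001 to 34820000), B12 alone was beyond 0.4, at -0.67. At Birc6, which encodes an inhibitor of apoptosis (74600001 to 74660000), it was B5 alone, at 0.43. The other 3 regions, between 13480001 and 19300000, were lower and had their lowest values in B2 (-0.53), B19 (-0.50), and B5 (-0.68).

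**Figure D5:**
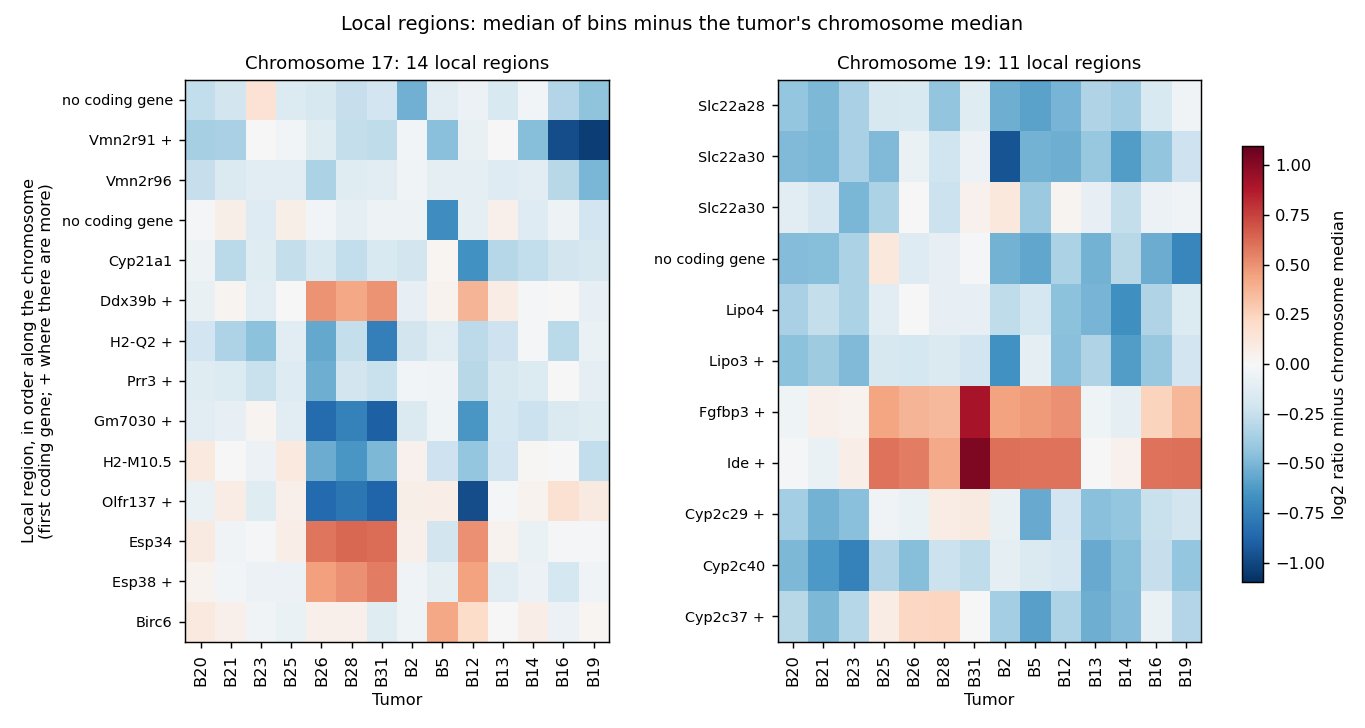
Level of each local region (rows, in order along the chromosome and named by their first coding gene) in each tumor (columns), as the median of its bins minus the chromosome median of the tumor on the log2 scale; red is higher and blue lower. On chromosome 17, B26, B28, B31, and B12 depart together in 6 of the 8 rows from Ddx39b to Esp38, all but the H2-Q2 and Prr3 rows, and on chromosome 19, B20, B21, B23, B13, and B14 stay near 0 at Fgfbp3 and Ide where the other tumors are higher.

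On chromosome 19 the higher regions were 2, close to each other. At Ide, which encodes the insulin-degrading enzyme, and the mitotic kinesin gene Kif11 (37240001 to 37380000), the latter with its upstream bases shown above, B31 had 1.03. B2, B5, B12, B16, B19, and B25 had 0.60 to 0.61, B26 had 0.56, and B28 had 0.42. B20, B21, B23, B13, and B14 had between -0.07 and 0.08. At Fgfbp3 and Btaf1 (36900001 to 37000000) the order was alike, with 0.90 in B31, 0.24 to 0.50 in the same 8 tumors, and -0.11 to 0.05 in the same 5. The 5 tumors near 0 held B13 and B14, with a raised chromosome 19, as well as B20, the tumor with the lowest chromosome 19. Of these, B20 and B21 share an animal number and are not separate animals.

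The 9 lower regions of chromosome 19 lay mostly at gene families. Of these, 3 were at Slc22a28 and Slc22a30, which encode solute carriers, 2 at the lipase-like Lipo genes, and 3 at the Cyp2c genes for drug-metabolizing enzymes. At Slc22a30 (8260001 to 8360000) the lowest value was -0.95 (B2), and B26 and B31 were nearest to 0, at -0.07 and -0.06. At Cyp2c40 (39760001 to 39820000) B23 had -0.74 and B21 -0.63, and the values of the other tumors ran up to -0.10. Bins over Cyp2c genes were at 0.4 or beyond in 12.3% of values, against 1.73% for chromosome 19 as a whole and 1.29% over all autosomes. For the other families of chromosome 19 it was 9.52% (Ifit genes, 6 bins), 2.80% (Olfr genes), and 1.1% (Ms4a genes), the last below the share of the chromosome. On chromosome 17 it was 18.8% for the H2-Q and H2-T genes and 5.04% for the Vmn2r genes, against 1.57% for the chromosome.

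The last of the lower regions held no protein-coding gene. At 25920001 to 25960000 on chromosome 19, 2 neighbouring bins had a fill value of the table, far below any ratio, in B20, B21, B23, B12, B13, and B14. B2, B5, B16, and B19 had between -1.39 and -0.65 in them. B25, B26, B28, and B31 had between -0.16 and 0.22 after the chromosome median was subtracted. These 3 sets were read from the same 2 bins, and how many other bins divide the tumors in this way was not counted. B20 and B21, both in the filled set, share an animal number. The table does not say what the fill value stands for. One other bin of chromosome 19, from 56500001 to 56520000, was filled in all 14 tumors, and chromosome 17 had none.

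Some single bins departed in every tumor. The bin over Tff2, which encodes a trefoil peptide (chromosome 17, 31140001 to 31160000), was between 1.64 and 2.08 in the 14 tumors, with a median of 1.92. A bin of chromosome 17 without a coding gene (61880001 to 61900000) was between 1.38 and 2.28, and another (13200001 to 13220000) between 1.28 and 1.73. The lowest bins of chromosome 17 began at 94820001 (median -0.61), 92420001 (-0.49), and 23880001 (-0.48, over Dcpp1 and Dcpp2), and only the first of these was below 0 in every tumor (-0.93 to -0.25). On chromosome 19 the bin over Dclre1a (56520001 to 56540000), next to the bin filled in every tumor, was between -1.26 and -0.58. The next lowest, at 33740001 over Lipo3 and Lipo2 (median -0.82) and at 8500001 (-0.78), ranged up to 0.18 and 0.54. The highest bins of chromosome 19 were over Gm21060 (61280001, 0.41 to 1.01), Btaf1 (36940001, median 0.62), and Ide (37320001, median 0.60), and those over Btaf1 and Ide were below 0 in at least 1 tumor. Bins past 0 on the same side in every tumor do not set the tumors apart.

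GC content was set beside the windows as a description. Of the 1-Mb windows of chromosome 17, the 5 with the highest median over the tumors, 0.038 to 0.054, had 37.2% to 39.6% GC. They began at 20000001, 21000001, 58000001, 82000001, and 90000001. Among the 5 lowest, -0.053 to -0.047, those at 29000001, 34000001, 35000001, and 47000001 had 48.4% to 49.4% GC, whereas the lowest, at 18000001 over Vmn2r genes, had 37.8%, like the highest windows. On chromosome 19 the 5 highest windows (14000001, 19000001, 20000001, 27000001, and 49000001, at 0.048 to 0.083) had 37.5% to 41.4% GC. The lowest window (39000001, -0.056), over Cyp2c genes, had 38.5% GC, within that range. The next 4 from the bottom had 42.3% (8000001, -0.047), 47.3% (47000001, -0.031), 46.9% (46000001, -0.017), and 51.1% (6000001, -0.016). The median bin had 42.2% GC on both chromosomes, which ranked 5 and 6 of the 19 autosomes from the highest. All 11 local regions of chromosome 19 and 11 of the 14 of chromosome 17 had more masked repeat sequence than the median bin of their chromosome (26.8% and 30.2%). The part of GC and of repeats in these levels was not tested, and whether a local departure was inherited or arose in the tumor cannot be told apart, since matched normal DNA of each mouse was not analysed here.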

How the data were processed

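DNA of 14 tumors was sequenced on an Illumina instrument and, per the study's methods, the authors aligned reads to mm10 with BWA 7.10 and counted them in 20-kb bins with an adapted CopywriteR. The deposited values, entered as a score because 1 fill value (-1.07374e+09) is no logarithm, are log2 ratios of tumor to normal tail DNA after correction by the authors for GC content and mappability; fill values and blanks were left out. The reads per bin are not given in the sources used here, so no counting interval could be made.

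Each tumor was centred on its median autosomal bin (Python 3.11.15, pandas 2.3.3, numpy 2.4.6, matplotlib 3.10.9). Windows of 1 Mb needed at least 10 bins. A run had at least 5 windows. Functions for medians, windows, and runs were tested on simulated data with known gains. No test between groups was made, since the columns carry no genotype. Gene positions are from GENCODE M21.

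Named are the 5 highest and 5 lowest windows per chromosome, every run, genes of lists, and the 3 bins farthest from 0 per direction, in part as ranges. Some listed genes are not reported here. The members and lists were chosen with earlier results of these data known. The tumor RNA and chromatin data were not used here.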

Additional observations from a re-analysis of the deposited data

How the results depend on the processing

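Each of the 28 chromosome medians was recomputed under 6 settings, and none moved by 1 SD over the tumors (0.053 for chromosome 17, 0.093 for chromosome 19, B28 included). That yardstick is wide for the smaller levels: subtracting the median over the tumors from every bin gave the largest shift (0.055) and took chromosome 19 from 0.081 to 0.026 in B14, from 0.12 to 0.065 in B13, from 0.052 to 0.0083 in B26, and below 0 in B19 (-0.0014), B12 (-0.015), and B25 (-0.027). Some medians near 0 also changed sign under mean centring, other centring, or GC matching. Counts depended on the threshold. At 0.1 and 0.15, 2 and 1 tumors passed for chromosome 17 and 3 and 2 for chromosome 19. Windows at 0.15 or higher were 71 on chromosome 17 and 109 on chromosome 19, with 1 and 3 at -0.15 or lower, and at 0.3 they were 0 and 33. With the median over the tumors subtracted, 3 windows of chromosome 17 passed, all in B25, B31 had 1 window of chromosome 19 in place of 10, and chromosome 19 was above the other autosomes in 4 tumors. Windows of 0.5 Mb gave 3 and 13 at -0.2 or lower, window means gave 3 and 6, and subtracting bins of the same GC content, chosen after seeing the data, gave 1 on chromosome 19. Windows of 2 Mb gave 5 higher on chromosome 17. Runs of at least 3 windows numbered 1 and 2. Local regions, defined after seeing the data, numbered 27 on chromosome 17 and 13 on chromosome 19 at 0.3, 8 and 5 at 0.5, and 2 and 4 when at least 5 bins were required. The cause of these changes was not tested beyond the thresholds themselves. No paired analysis was possible because the columns carry no replicate numbers and no groups were compared.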
